A study of Mus musculus with 9 samples.

Results

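Primary microglia treated with siRNA against Chd8 were compared directly with primary microglia treated with siRNA against Tsc2. The 6 libraries of these treatments were taken from the 9 libraries of the series by the siRNA named in the sample titles, and the 3 control siRNA libraries entered no test and are given as values only. The microglia came from embryonic C57BL/6J mouse brains, were shaken off mixed glial cultures, received siRNA (short RNA duplexes that direct the degradation of a matching mRNA) by lipofection, and were harvested 3 days later. The study's results text adds stimulation with the bacterial cell wall component lipopolysaccharide (LPS) over the same time, whereas the sample descriptions name no LPS. Replicates of a treatment were cultured from different animals, and the libraries of each treatment carried the replicate numbers 1, 2, and 3. Whether libraries with the same number came from the same brain is not stated.

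Both targets are associated with autism spectrum disorder. Chd8 encodes an ATP-dependent chromatin remodeler of the CHD family that binds many promoters and interacts with beta-catenin and p53. Tsc2 encodes tuberin, which together with hamartin (Tsc1) restrains the kinase complex mTORC1. In many cell types mTORC1 promotes ribosome synthesis, raises ATF4 activity, and keeps the lysosomal regulator TFEB out of the nucleus. Microglia are the resident macrophages of the brain, which secrete cytokines and chemokines and clear debris by phagocytosis. The comparison asks in which genes microglia differed between the loss of these regulators.

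Total counts were between 16948904 and 33213477 in the 6 libraries, and CPM are counts relative to the library total, here also scaled for library composition. On this scale 3 counts, taken as the detection floor, corresponded to 0.0874 to 0.190 CPM. Differences are log2 values of Chd8 siRNA over Tsc2 siRNA. The replicate number accounted for 59.1% and the siRNA for 15.1% of the variance in log2 CPM. The number has more levels than the siRNA, so these shares are not directly comparable. Libraries with the same number deviated together once the siRNA means were taken out (r = 0.51, 0.27, and 0.36). The comparison was therefore made within replicate numbers. Csf1r, the receptor that maintains microglia, was at 404 to 485 CPM. Tmem119 and P2ry12, which mark microglia in the intact brain, did not exceed 1.11 and 2.76 CPM.

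Both targets were lower in the cells that received their own siRNA, in all 3 pairs, but neither passed the test. In 21 other settings of the processing, Chd8 passed the threshold in 8 and Tsc2 in 0. Chd8, at chr14:52198151-52257780 on the minus strand of GRCm38, was at 86.3, 44.2, and 38.1 CPM with Chd8 siRNA and 118, 89.2, and 101 CPM with Tsc2 siRNA. The groups did not overlap, and the log2 difference was smallest in replicate 1 (-0.45, -1.004, and -1.39 in replicates 1, 2, and 3). The fitted log2 fold change was -0.95 ± 0.15 (SE, n = 3 pairs), with an adjusted p of 0.10004 in edgeR's quasi-likelihood test. The control libraries were at 103 ± 13.1 CPM (SD, n = 3) and the Tsc2 siRNA libraries at 103 ± 14.4 CPM.

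Tsc2, at chr17:24595816-24632630 on the minus strand, was at 38.4, 38.3, and 39.9 CPM with Chd8 siRNA and 24.5, 30.4, and 36.3 CPM with Tsc2 siRNA. Its groups did not overlap either, but the log2 difference was only 0.14 in replicate 3, against 0.64 and 0.33 in replicates 1 and 2. The fitted log2 fold change was 0.37 ± 0.13 (SE), with an adjusted p of 0.371 in edgeR's quasi-likelihood test, and the control libraries were at 39.9 ± 0.931 CPM (SD, n = 3). Tsc2 overlaps Pkd1 on the opposite strand, which was at 6.96, 8.81, and 17.9 CPM with Chd8 siRNA and 7.90, 12.5, and 13.5 CPM with Tsc2 siRNA. For both targets the two-sided exact permutation test over libraries gave p = 0.1 and the exact test that flips signs within pairs gave p = 0.25, the smallest values that 3 libraries against 3 and 3 pairs allow.

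**Figure D1:**
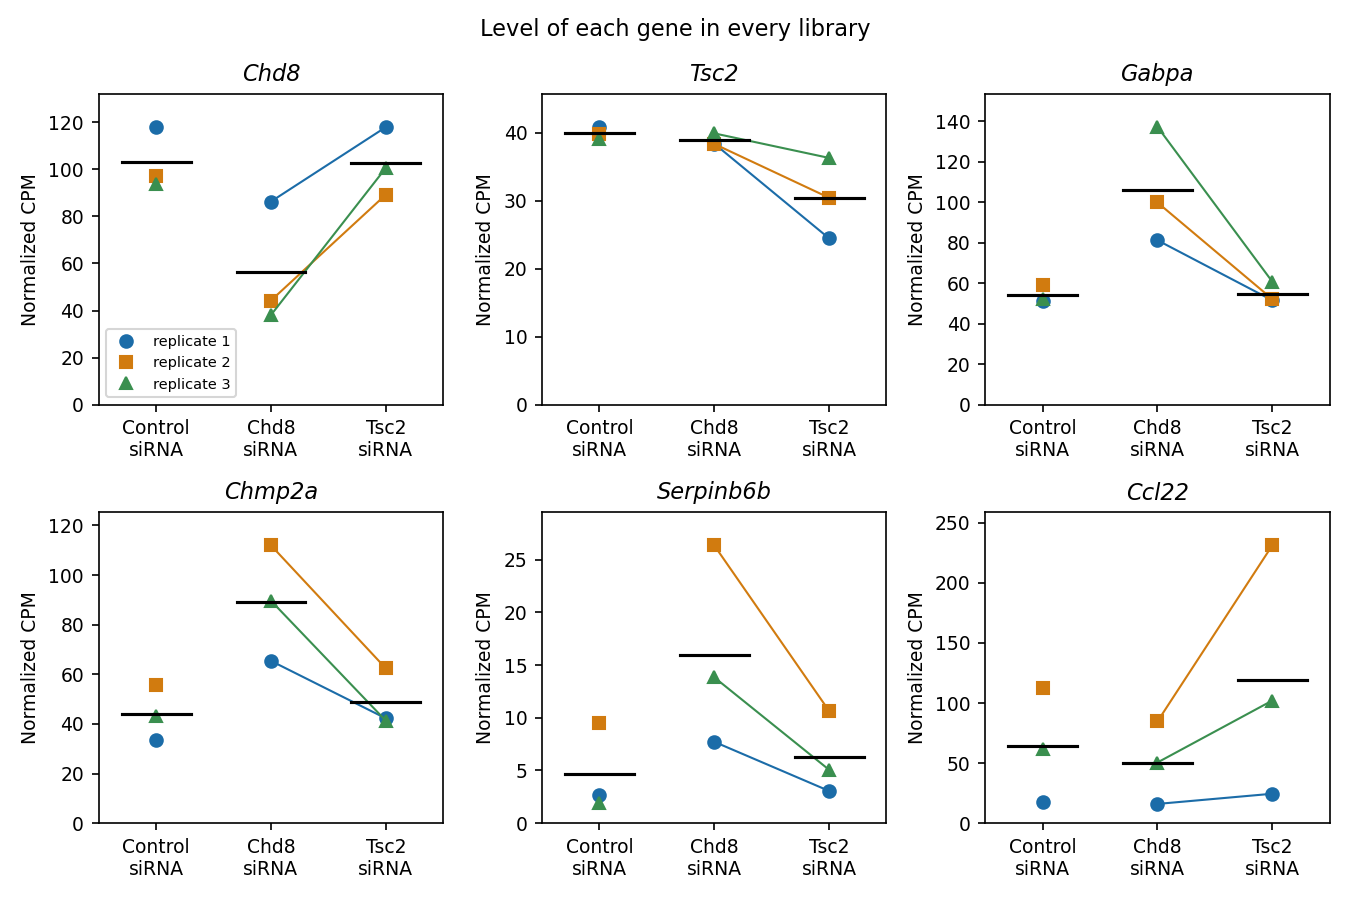
Normalized CPM (y axis, from 0) of 6 genes in every library, by siRNA (x axis), with a symbol per replicate number and bars at the group means. Chd8 was lower with Chd8 siRNA in all 3 pairs, while the control libraries of Gabpa, at 51.2 to 59.1 CPM, lay at the level of the Tsc2 siRNA libraries, at 51.5 to 60.7 CPM.

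Of 15163 genes tested, 5 annotation entries (0.0330%) were called, that is passed a false discovery rate of 0.05 and differed at least 1.5-fold. They were Gabpa, Chmp2a, Serpinb6b, and both of the entries that carry the symbol Nnt; 4 were higher and 1 was lower with Chd8 siRNA, and all had an adjusted p of 0.0446. At an unadjusted p under 0.05, 776 genes (5.12%) were higher and 725 genes (4.78%) lower. The calls lay close to the threshold: when entries with the same symbol were summed, the adjusted p of Gabpa, Chmp2a, and Serpinb6b was 0.0606 and edgeR's quasi-likelihood test called 0 genes, with 1505 at an unadjusted p under 0.05. Without the block it called 0 genes, with 424 at an unadjusted p under 0.05. Without replicates 1, 2, and 3, it called 212, 0, and 13 genes, with 871 at an unadjusted p under 0.05 where it called 0.

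Gabpa rose with Chd8 siRNA relative to Tsc2 siRNA. It encodes the DNA-binding subunit of GA-binding protein, an ETS family transcription factor that activates genes of the mitochondrial respiratory chain and many housekeeping genes. Its level was 81.2, 99.9, and 137 CPM with Chd8 siRNA and 51.5, 52.1, and 60.7 CPM with Tsc2 siRNA, so that every Chd8 siRNA library was above every Tsc2 siRNA library. The fitted change was 1.90-fold, a log2 fold change of 0.93 ± 0.11 (SE). The gene lies at chr16:84834925-84863779 on the plus strand and overlaps Atp5j, an ATP synthase subunit gene on the opposite strand, which was at 56.8, 56.1, and 51.1 CPM against 58.6, 58.7, and 56.0 CPM (adjusted p = 0.823). Of the coding transcripts of Gabpa, ENSMUST00000009120 had 1131, 653, and 1480 estimated counts with Chd8 siRNA and 671, 559, and 1222 with Tsc2 siRNA, and ENSMUST00000114184 had 1272, 893, and 1826 against 537, 483, and 833. These transcript counts are not scaled for depth.

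Chmp2a rose as well. It encodes a subunit of ESCRT-III, the membrane-cutting complex that acts in multivesicular bodies, autophagosome closure, and membrane repair. Its level was 65.4, 112, and 89.7 CPM with Chd8 siRNA and 42.2, 62.4, and 41.3 CPM with Tsc2 siRNA, and the groups did not overlap. The fitted change was 1.82-fold, a log2 fold change of 0.87 ± 0.11 (SE), and the control libraries were at 44.2 ± 11.2 CPM (SD, n = 3), nearer the Tsc2 siRNA libraries. The gene lies at chr7:13032010-13034807 on the minus strand. Most of its estimated counts were on the coding transcript ENSMUST00000005711, with 1833, 1686, and 2031 against 943, 1216, and 1215.

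Serpinb6b, an intracellular serine protease inhibitor, rose 2.57-fold, a log2 fold change of 1.36 ± 0.17 (SE). Its level was 7.72, 26.4, and 13.8 CPM with Chd8 siRNA and 3.06, 10.7, and 5.07 CPM with Tsc2 siRNA. The groups overlapped, since replicate 2 was the highest of each, and the log2 differences within replicates 1, 2, and 3 were 1.21, 1.27, and 1.37. Its log2 fold change was 1.32 to 1.39 with a pair left out, but without the block it was 0.79 without Chd8 siRNA replicate 2 and 1.96 without Tsc2 siRNA replicate 2. The gene lies at chr13:32965209-32979067 on the plus strand and has near relatives with which it may share reads. One of these, Serpinb6a, was at 109, 134, and 124 CPM against 109, 87.7, and 84.6 CPM (log2 fold change 0.39, adjusted p = 0.319).

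The bases upstream of Chmp2a and Serpinb6b are shown as the promoter sequence of the called genes that have at least 100 listed bases outside the annotated gene. They are from RefSeq (GRCm38.p6), 5′ to 3′ on the strand of the gene, at chr7:13034808-13035027 and chr13:32965011-32965208. The motifs searched on both strands were the ETS motif CCGGAAG, the AP-1 motif TGANTCA, the ATF4 motif TGATGNAA, and the E-box CACGTG, which 6.86% of all genes with a listed promoter held. None of these letters was in either window, so no base is in capitals. The 250 bases before the RefSeq start of Gabpa held the ETS motif, as did those of 7.83% of all genes with a listed promoter. The bases of Gabpa are not shown because they overlap the annotated gene.
Chmp2a: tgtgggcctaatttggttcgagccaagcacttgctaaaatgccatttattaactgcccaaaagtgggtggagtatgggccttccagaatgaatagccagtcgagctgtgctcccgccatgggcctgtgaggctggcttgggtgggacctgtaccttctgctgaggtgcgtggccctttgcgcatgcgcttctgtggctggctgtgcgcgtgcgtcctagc
Serpinb6b: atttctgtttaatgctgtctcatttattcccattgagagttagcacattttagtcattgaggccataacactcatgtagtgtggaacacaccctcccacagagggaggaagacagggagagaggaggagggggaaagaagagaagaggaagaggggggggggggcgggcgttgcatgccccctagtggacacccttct

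The Nnt entries moved in opposite directions, while their sum did not pass the test. Nnt encodes the nicotinamide nucleotide transhydrogenase of the inner mitochondrial membrane, and C57BL/6J mice are known to carry a deletion within it. The first entry (ENSMUSG00000025453, chr13:119335448-119408997) was at 6.66, 5.89, and 7.004 CPM with Chd8 siRNA and 1.40, 0.946, and 1.75 CPM with Tsc2 siRNA, a fitted rise of 4.82-fold. The second entry (ENSMUSG00000116207, chr13:119335528-119408952) lies within the first on the same strand. It had 0 counts in all 3 Chd8 siRNA libraries and 6.24, 4.28, and 2.74 CPM with Tsc2 siRNA, and was thus at least 22.3-fold lower in every Chd8 siRNA library than in its partner, at a floor of 3 counts per library. Summed, Nnt was at 6.66, 5.89, and 7.004 CPM against 7.64, 5.23, and 4.48 CPM (log2 fold change 0.20 ± 0.24 SE, adjusted p = 0.831). The control libraries differed among themselves in the second entry, with 1.59, 4.48, and 0 CPM. By transcript, ENSMUST00000099149 of the first entry had 133, 55, and 128 estimated counts with Chd8 siRNA and 0 in all 3 Tsc2 siRNA libraries, whereas ENSMUST00000223268 of the second had 0 and 147, 86, and 94. How reads were divided between these overlapping transcripts was estimated by the quantification, so these calls are not a measured difference in the level of Nnt.

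**Figure D2:**
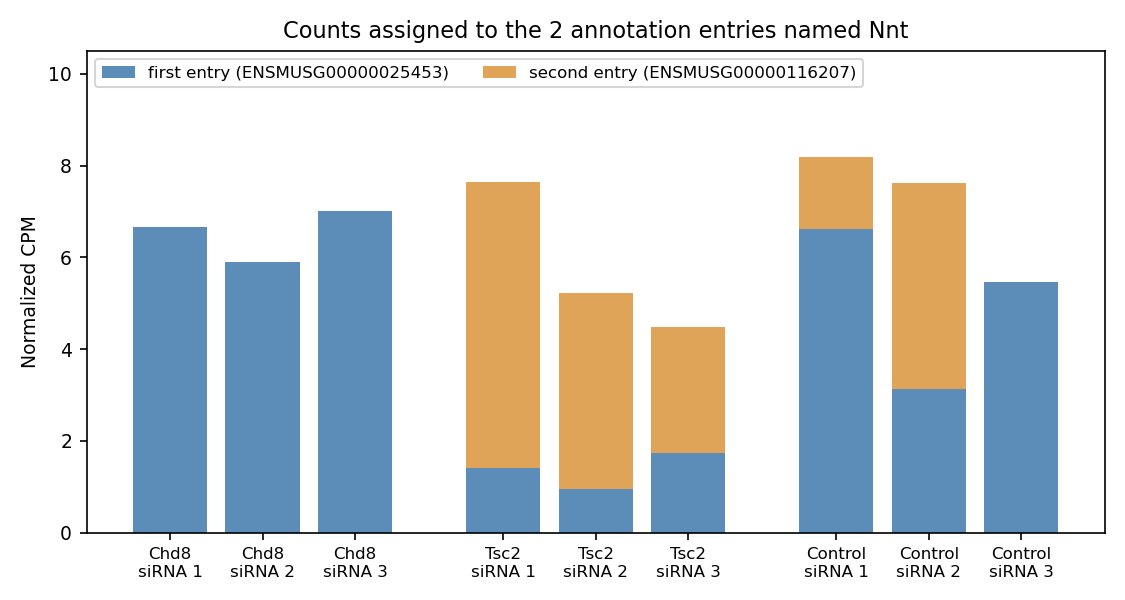
Normalized CPM (y axis) of the 2 overlapping annotation entries named Nnt in every library (x axis), stacked. The second entry was at 0 in the 3 Chd8 siRNA libraries and at 2.74 to 6.24 CPM in the Tsc2 siRNA libraries, while the sum was 5.89 to 7.004 CPM and 4.48 to 7.64 CPM.

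Ccl22, a chemokine that attracts T cells through the receptor CCR4, stood just outside the threshold on the lower side and past it in 11 of 21 other settings. Its level was 16.0, 84.7, and 50.5 CPM with Chd8 siRNA and 24.5, 231, and 102 CPM with Tsc2 siRNA (log2 fold change -1.04 ± 0.14 SE, adjusted p = 0.0504). The groups overlapped because replicate 1 was low and replicate 2 high in both, as in the control libraries (18.0, 112, and 61.4 CPM). Its log2 fold change was -0.83 to -1.24 with a pair left out and, without the block, between -1.84 (without Chd8 siRNA replicate 2) and -0.33 (without Tsc2 siRNA replicate 2). Rps4x, a protein of the small ribosomal subunit, was at 110.1, 101, and 91.0 CPM against 139.7, 150.3, and 146 CPM (-0.54 ± 0.090 SE, adjusted p = 0.105). Trak2, an adaptor that links mitochondria to kinesin motors, was at 36.0, 26.5, and 30.4 CPM against 48.9, 43.1, and 54.0 CPM (-0.66 ± 0.11 SE, adjusted p = 0.116). The groups did not overlap in Rps4x and Trak2, nor in Snn (-0.66), Spg21 (-0.81), and Rps12-ps3 (-0.57), which carries a pseudogene symbol but is annotated as protein-coding and may share reads with Rps12. The unconventional myosin Myo1g (-0.65), the kinase-anchoring protein Akap8 (-0.72), the Rab5 exchange factor Rin3 (-0.78), and the C-type lectin Cd93 (-0.71) were lower in all 3 pairs with overlapping groups, at adjusted p between 0.105 and 0.131. With a library left out and no block, Myo1g was -0.90 to -0.38 and Akap8 -0.98 to -0.50. Rin3 was then -1.03 to -0.68 and Cd93 -1.003 to -0.43.

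On the higher side, Usp19 and Hpgd were nearest to the threshold. Usp19, a deubiquitinase of the endoplasmic reticulum, was at 108, 125, and 122 CPM with Chd8 siRNA and 75.1, 81.4, and 76.6 CPM with Tsc2 siRNA (log2 fold change 0.60 ± 0.084 SE, adjusted p = 0.0574). Hpgd, which inactivates prostaglandins, was at 46.0, 51.4, and 58.7 CPM against 29.5, 30.5, and 31.5 CPM (0.76 ± 0.11 SE, adjusted p = 0.0574). The groups did not overlap in either gene, and the control libraries, at 83.1 ± 3.78 and 31.1 ± 1.73 CPM (SD, n = 3), were nearer the Tsc2 siRNA libraries. Odc1, the rate-limiting enzyme of polyamine synthesis, was at 143, 212, and 189 CPM against 101, 131, and 141 CPM, also without overlap, and its control libraries, at 163 ± 15.5 CPM (SD, n = 3), were nearer the Chd8 siRNA libraries. The transcription factor Jdp2 (0.56), the MYC antagonist Mxd1 (0.64), the chromatin protein Hmga1 (0.48), the ERK phosphatase Dusp5 (0.54), and Enc1 (0.76) were higher in all 3 pairs with overlapping groups, at adjusted p between 0.0706 and 0.10004. With a library left out and no block, Jdp2 was -0.14 to 1.31, Mxd1 0.35 to 0.97, and Hmga1 0.35 to 0.62. Dusp5 was then 0.26 to 0.76 and Enc1 0.40 to 1.11.

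**Figure D3:**
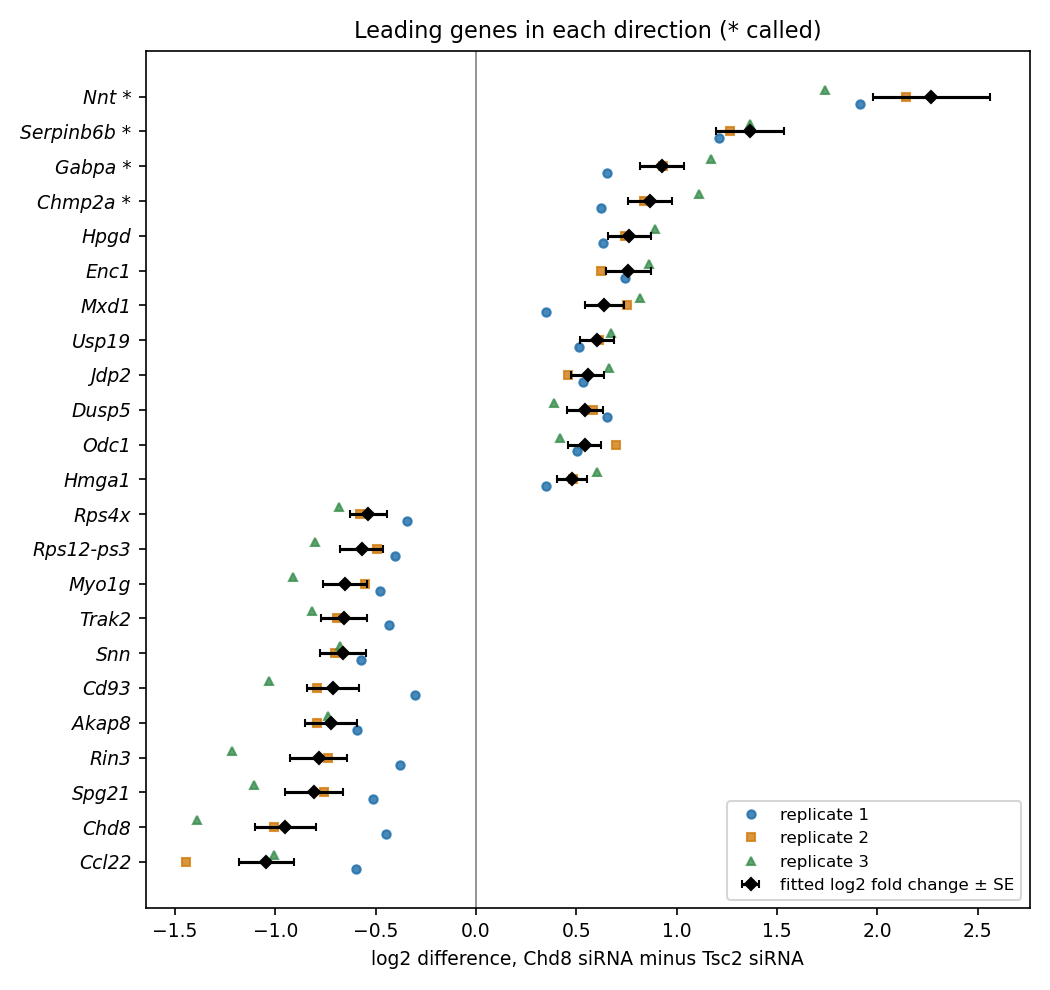
Log2 difference of Chd8 siRNA minus Tsc2 siRNA (x axis) for the leading genes in each direction (y axis), as the fitted log2 fold change ± SE and as the value within each replicate number. The 3 replicates lay on one side of 0 for each gene shown, with Gabpa at 0.65, 0.93, and 1.17 and Ccl22 at -0.60, -1.44, and -1.01.

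The pair of replicate 1 had the smallest difference in 17 of the 23 leading genes other than Chd8, a share of 73.9%, against 62.4% of the 1501 genes with an unadjusted p under 0.05 and 42.9% of all genes tested. Chd8 itself also differed least in that pair and Tsc2 most. Among the 12 leading genes that were higher with Chd8 siRNA, the control mean was nearer the Tsc2 siRNA mean in 8 and nearer the Chd8 siRNA mean in 4, and the numbers were the same for the 12 that were lower. Among all 776 genes higher at an unadjusted p under 0.05, the control mean was nearer Tsc2 siRNA in 461 and lay between the knockdowns in 469.

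Of 641 tested genes in the gene lists examined, 0 were called in edgeR's quasi-likelihood test, and 153 had an unadjusted p under 0.05, which 9.90% of all genes had. The members were chosen with earlier results of these data known, so these numbers are not a test of the lists. Because 0 members were called, the lists are described by counts and medians, and no member named below passed the test. Among all genes the median log2 fold change was -0.0021, 50.3% were below 0, 16.5% were above 0 and 16.3% below 0 in all 3 pairs, and the groups did not overlap in 8.53%.

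Genes of cytoplasmic ribosomal proteins lay below 0 in 48 of 50, with a median of -0.17 and a range from -0.54 to 0.11. Among the exceptions was Rps25 (0.065), and 19 genes had an unadjusted p under 0.05, all lower. In 32 genes the difference was below 0 in all 3 pairs, and the medians in replicates 1, 2, and 3 were -0.10, -0.13, and -0.29. The groups did not overlap in 22 genes. Without replicate 3 the median was -0.11, with 44 genes below 0. After Rps4x, the largest differences were those of Rpl37, at 79.8, 98.9, and 64.8 CPM against 101, 109, and 106 CPM, and Rpl24, at 96.6, 105, and 78.4 CPM against 112, 129.6, and 118 CPM, both chosen after their values were seen. The list summed to 7232, 7858, and 6729 CPM with Chd8 siRNA and 7701, 8451, and 8301 CPM with Tsc2 siRNA, so that each Chd8 siRNA library was below its partner, and to 6535, 8202, and 7531 CPM in the control libraries. Over all 80 tested protein-coding genes with an Rpl or Rps symbol, 75 were below 0, with a median of -0.16. Ribosomal protein genes have many processed pseudogenes that may share their reads.

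Among amino acid and stress genes controlled by the transcription factor ATF4, 21 of 23 were below 0, with a median of -0.28. Only 8 of them were below 0 in all 3 pairs, and the medians in replicates 1, 2, and 3 were -0.29, -0.043, and -0.30. Without replicate 3 the median was -0.077, with 17 of 21 below 0, and without Chd8 siRNA replicate 1 and the block it was -0.14, with 14 of 23 below 0. Atf5, a transcription factor of the same stress response, was at 2.06, 2.73, and 3.65 CPM with Chd8 siRNA and 4.50, 4.33, and 7.25 CPM with Tsc2 siRNA (-0.93 ± 0.27 SE, adjusted p = 0.279). Atf4 itself was at 149, 159.5, and 133 CPM against 159, 206, and 178 CPM (-0.29 ± 0.087 SE), and the amino acid transporter gene Slc7a5 at 6.72, 8.68, and 10.3 CPM against 10.4, 13.6, and 11.2 CPM (-0.46 ± 0.19 SE), both chosen after their values were seen. The exceptions above 0 were Vldlr (0.40) and Psat1 (0.035).

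Of the tested genes of the TSC and mTOR complexes, 16 of 22 were below 0, with a median of -0.10 that lay between -0.13 and 0.025 over 21 settings of the processing. Rptor, the substrate-binding subunit of mTORC1, had the lowest p, at 92.0, 74.9, and 84.2 CPM against 99.99, 104, and 107 CPM (-0.32 ± 0.094 SE, adjusted p = 0.306), and Tsc1 was at 25.1, 21.9, and 30.9 CPM against 28.2, 29.3, and 25.9 CPM (-0.11 ± 0.15 SE). Lysosome genes, many of which TFEB controls, were above 0 in 22 of 28 and in all 3 pairs in 14, with a median of 0.091 (0.058 with scaling by library size only and 0.18 without Tsc2 siRNA replicate 1 and the block). The aspartic protease gene Ctsd was at 1589, 1999.6, and 1886 CPM with Chd8 siRNA and 1499, 1485, and 1319 CPM with Tsc2 siRNA (0.34 ± 0.084 SE, adjusted p = 0.243). Core autophagy genes were above 0 in 17 of 27, with a median of 0.12 that was 0.041 without replicate 3, and the ATG8 family gene Gabarapl2 was at 23.5, 40.4, and 31.5 CPM against 19.7, 28.8, and 24.9 CPM (0.36 ± 0.12 SE). The autophagy list summed to 2380, 2648, and 2789 CPM with Chd8 siRNA and 2326, 2962, and 3230 CPM with Tsc2 siRNA. Its sum was thus lower with Chd8 siRNA in replicates 2 and 3. Genes of the mitochondrial respiratory chain were above 0 in 33 of 42, with a median of 0.12 and medians of 0.013, 0.14, and 0.22 in replicates 1, 2, and 3. Without replicate 3 that median was 0.056, with 28 of 42 above 0. Sdhc, a membrane subunit of succinate dehydrogenase, was at 29.5, 33.3, and 27.7 CPM against 22.4, 26.0, and 20.1 CPM (0.41 ± 0.12 SE, adjusted p = 0.282).

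**Figure D4:**
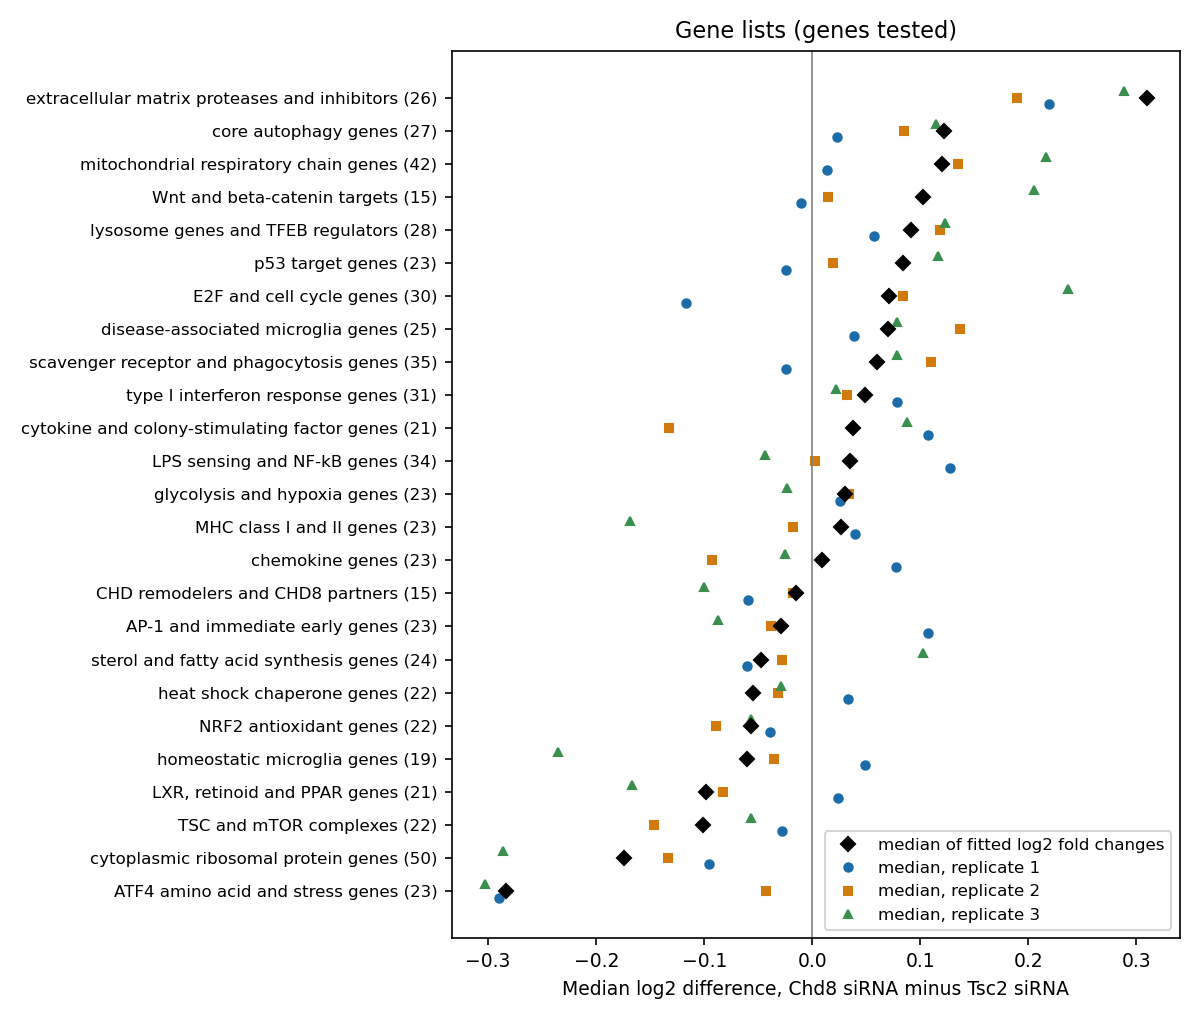
Median log2 difference of Chd8 siRNA minus Tsc2 siRNA (x axis) in each gene list (y axis), from the fitted log2 fold changes and within each replicate number. The ribosomal protein list, at -0.10, -0.13, and -0.29 in replicates 1, 2, and 3, was below 0 in all 3, and the list of extracellular matrix proteases and inhibitors, at 0.22, 0.19, and 0.29, above 0 in all 3.

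Chd7, the close relative of Chd8, was at 136, 138, and 138 CPM with Chd8 siRNA and 103, 89.7, and 100.3 CPM with Tsc2 siRNA, without overlap, and at 139, 114, and 124 CPM in the control libraries (0.49 ± 0.084 SE, adjusted p = 0.105). Chd3, a subunit of the NuRD complex, was at 22.8, 19.6, and 14.9 CPM against 29.3, 25.4, and 30.6 CPM (-0.59 ± 0.16 SE, adjusted p = 0.265). Both were chosen after their values were seen, and the list of CHD remodelers and partners of CHD8 as a whole had 6 of 15 genes above 0. Among targets of beta-catenin, 12 of 15 were above 0 with a median of 0.10 (0.055 without replicate 3). The medians in replicates 1, 2, and 3 were -0.011, 0.015, and 0.20, and 3 of 15 genes were higher in all 3 pairs. Znrf3, a feedback inhibitor of Wnt receptors, was at 5.89, 32.1, and 26.3 CPM against 4.20, 23.95, and 7.48 CPM (0.93 ± 0.25 SE, adjusted p = 0.265). Its log2 differences were 0.44, 0.42, and 1.75 in replicates 1, 2, and 3, and the fitted value was 0.45 without replicate 3. Target genes of p53 were above 0 in 14 of 23 with a median of 0.084 that turned to -0.037 without Chd8 siRNA replicate 3 and to -0.033 without Tsc2 siRNA replicate 1, both without the block, and the ribonucleotide reductase gene Rrm2b was at 6.16, 9.57, and 5.41 CPM against 4.16, 4.28, and 3.99 CPM (0.72 ± 0.24 SE).

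The list of extracellular matrix proteases and inhibitors had a median of 0.31, with 18 of 26 genes above 0. It was -0.041 without Chd8 siRNA replicate 3 and without the block, and above 0 in the other 20 settings. At an unadjusted p under 0.05, 11 were higher and 3 lower. The summed level of the list was 8039, 8964, and 10314 CPM with Chd8 siRNA, 7771, 9896, and 10216 CPM with Tsc2 siRNA, and 8270.4, 11254, and 11467 CPM in the control libraries, so that replicate 2 was lower with Chd8 siRNA and each control library was above both. Col18a1, a collagen of basement membranes, was at 25.8, 50.8, and 53.9 CPM with Chd8 siRNA and 20.5, 25.7, and 24.5 CPM with Tsc2 siRNA, without overlap, and at 33.5, 55.1, and 47.7 CPM in the control libraries (0.82 ± 0.16 SE, adjusted p = 0.142). The gelatinase gene Mmp9 was at 14.8, 23.01, and 42.3 CPM against 11.4, 9.11, and 15.7 CPM (1.05 ± 0.20 SE, adjusted p = 0.154), and the stromelysin gene Mmp3 at 6.79, 4.25, and 17.9 CPM against 2.84, 3.39, and 9.49 CPM (0.85 ± 0.23 SE). Both were higher in all 3 pairs, with overlapping groups. The urokinase receptor gene Plaur was at 314, 569, and 543 CPM against 255, 492, and 467 CPM (0.24 ± 0.068 SE), higher in all 3 pairs. Mmp9, Mmp3, Plaur, and Fn1 were chosen after their values were seen. The fibronectin gene Fn1, at 23.7, 88.3, and 367 CPM against 20.3, 68.0, and 221 CPM, varied more between replicate numbers than between siRNAs, and the summed level of the 5 fibroblast markers was 5.96 to 16.8 CPM with Chd8 siRNA and 4.25 to 30.3 CPM with Tsc2 siRNA, with Dcn and Lum at most 0.495 and 0.166 CPM. The part of other cells in this result was not tested, and in bulk libraries fewer cells of a type and less RNA per cell cannot be told apart.

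The AP-1 motif TGANTCA, on either strand, was found within the 250 bases before the RefSeq start in 6 of the 18 matrix list genes with a listed promoter (33.3%) and in 7.82% of all 27025 genes with one, a comparison chosen after the values were seen. The windows of Mmp3 (chr9:7445572-7445821, motif 46 bases before the start) and Plaur (chr7:24462233-24462482, 69 bases before it) are shown as members that hold it, from GRCm38.p6 on the plus strand, with the motif in capitals.
Mmp3: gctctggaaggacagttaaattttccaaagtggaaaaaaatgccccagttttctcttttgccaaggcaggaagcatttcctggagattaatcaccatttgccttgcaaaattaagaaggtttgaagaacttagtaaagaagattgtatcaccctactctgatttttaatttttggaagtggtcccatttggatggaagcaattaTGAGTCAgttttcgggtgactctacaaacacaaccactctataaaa
Plaur: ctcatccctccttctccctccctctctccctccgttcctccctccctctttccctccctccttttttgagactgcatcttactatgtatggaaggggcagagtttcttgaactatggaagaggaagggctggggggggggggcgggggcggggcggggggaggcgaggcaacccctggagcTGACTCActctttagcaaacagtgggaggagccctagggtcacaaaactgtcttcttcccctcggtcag
The collagenase gene Mmp13 also held the motif, and its log2 fold change was -0.11 ± 0.063 (SE). The ETS motif CCGGAAG was found in 12 of 37 ribosomal protein genes with a listed promoter (32.4%) and in 7.83% of all genes with one, and the ATF4 motif TGATGNAA in 6 of 21 genes of the ATF4 list (28.6%) and in 3.91% of all genes. The ATF4 list holds genes named as controlled by ATF4, so its share describes the list and not these libraries. A match of letters is a description of the sequence, not a binding site or a cause.

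**Figure D5:**
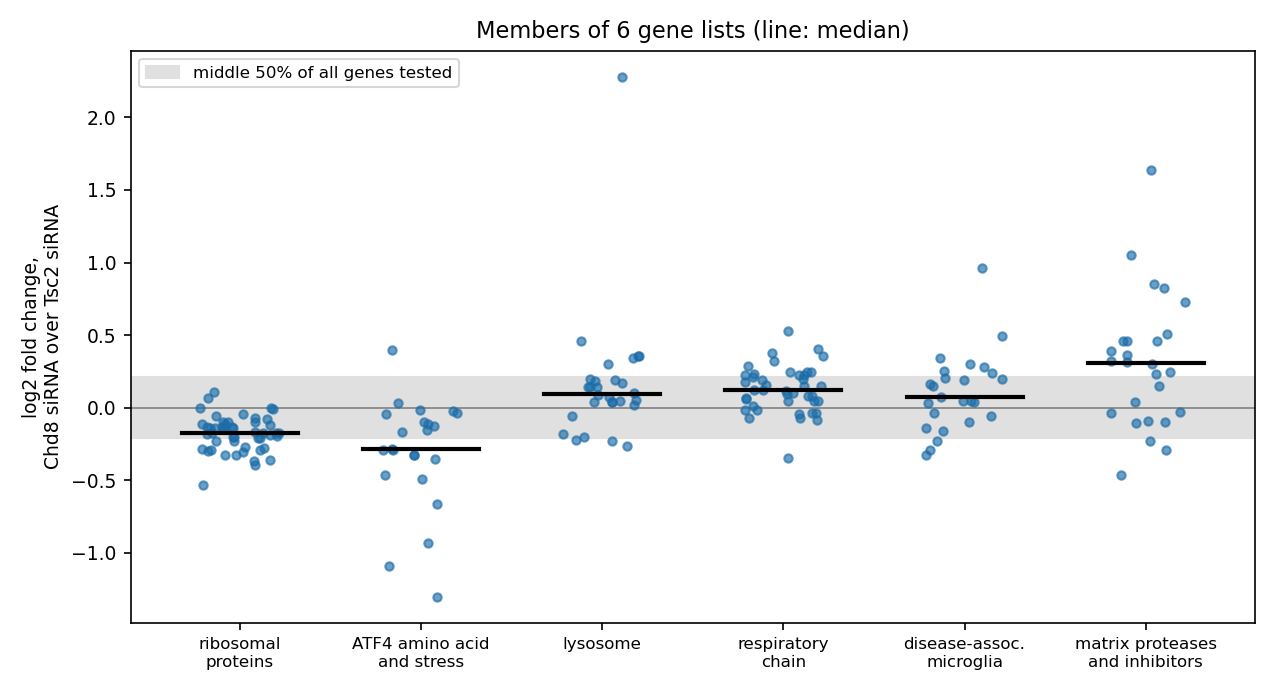
Fitted log2 fold change of Chd8 siRNA over Tsc2 siRNA (y axis) for every tested member of 6 gene lists (x axis), with a line at each median and a band over the middle of all genes tested. The ribosomal protein genes, with 48 of 50 below 0, spanned -0.54 to 0.11, and the matrix list -0.46 to 1.64.

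Among genes of disease-associated microglia, 17 of 25 were above 0, with a median of 0.070. Without Tsc2 siRNA replicate 1 and the block the median was 0.00079, with 12 of 25 below 0. Spp1, osteopontin, was at 3264, 1351, and 2383 CPM with Chd8 siRNA and 2987, 867, and 1462 CPM with Tsc2 siRNA and at 4425, 1685, and 2537 CPM in the control libraries (0.49 ± 0.10 SE, adjusted p = 0.172), so that the Tsc2 siRNA library was the lowest of each replicate number. The Spp1 value was 0.38 to 0.67 with a pair left out and, without the block, 0.072 without Chd8 siRNA replicate 1, 0.069 without Tsc2 siRNA replicate 2, and 1.004 without Tsc2 siRNA replicate 1. Homeostatic microglia genes were above 0 in 5 of 19, with a median of -0.061 that was -0.0022 without Tsc2 siRNA replicate 2 and the block, and Sparc, which had the lowest p, was at 3.23, 24.9, and 79.0 CPM against 2.72, 19.5, and 45.9 CPM (0.51 ± 0.14 SE). With a library left out and no block, the Sparc value was between -0.71 (without Chd8 siRNA replicate 3) and 1.69. Scavenger receptor and phagocytosis genes were above 0 in 20 of 35. Cd36, which takes up oxidized lipoproteins, was at 285, 430.0, and 391 CPM against 233, 304, and 228 CPM (0.52 ± 0.094 SE, adjusted p = 0.131), and was also the member with the lowest p of the list of LXR, retinoid, and PPAR genes.

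Igf1, a growth factor that microglia supply to other brain cells, was at 357, 510.2, and 407 CPM with Chd8 siRNA and 376, 464, and 386 CPM with Tsc2 siRNA. The groups overlapped, with a log2 fold change of 0.046 ± 0.073 (SE) and a two-sided exact permutation p of 0.7. The phagocytosis genes that the study discusses had overlapping groups as well, with log2 fold changes of -0.0088 ± 0.11 (SE) for Itgam, -0.067 ± 0.093 for Becn1, 0.19 ± 0.095 for Itgb2, -0.066 ± 0.083 for Msr1, 0.046 ± 0.21 for Marco, and 0.034 ± 0.086 for Trem2. Mfge8, which bridges apoptotic cells to integrins, was at 16.9, 47.5, and 49.2 CPM against 18.8, 27.5, and 32.8 CPM (0.42 ± 0.17 SE, adjusted p = 0.460), higher with Chd8 siRNA in replicates 2 and 3 and lower in replicate 1.

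The lists of inflammatory genes had medians near that of all genes: 0.048 for type I interferon response genes (22 of 31 above 0), 0.038 for cytokines and colony-stimulating factors (12 of 21), 0.0086 for chemokines (13 of 23), 0.035 for LPS sensing and NF-kB genes (23 of 34), and 0.027 for MHC genes (13 of 23). Over the 21 settings each of these medians lay on both sides of 0. The interferon list had 13 of 31 genes higher in all 3 pairs, medians of 0.079, 0.032, and 0.022 in replicates 1, 2, and 3, and a summed level of 30759, 38854, and 35009.5 CPM with Chd8 siRNA, 28152, 35841, and 29878 CPM with Tsc2 siRNA, and 26610.2, 35515, and 29896 CPM in the control libraries, higher with Chd8 than with Tsc2 siRNA in all 3 pairs. Csf3, the granulocyte colony-stimulating factor, was at 136, 68.6, and 128 CPM with Chd8 siRNA and 76.7, 52.3, and 86.1 CPM with Tsc2 siRNA and at 167, 96.1, and 169 CPM in the control libraries (0.60 ± 0.10 SE, adjusted p = 0.104). Its control library was the highest of each replicate number. Ifit1, an antiviral protein induced by interferon, was at 1817, 2152, and 2086 CPM against 1524, 1738, and 1715 CPM (0.28 ± 0.059 SE, adjusted p = 0.180), and Ptgs2, the inducible cyclooxygenase, at 3307, 3638, and 4339 CPM against 2711, 3511, and 3387 CPM (0.23 ± 0.070 SE). Cd74, the chaperone of MHC class II, was at 89.4, 38.2, and 29.1 CPM against 104, 80.1, and 72.6 CPM (-0.86 ± 0.18 SE, adjusted p = 0.172), with log2 differences of -0.22, -1.06, and -1.31 in replicates 1, 2, and 3.

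The other lists had medians of 0.071 for E2F and cell cycle genes, -0.057 for NRF2 antioxidant genes, -0.048 for sterol and fatty acid synthesis genes, 0.030 for glycolysis and hypoxia genes, -0.055 for heat shock chaperones, -0.029 for AP-1 and immediate early genes, and -0.10 for LXR, retinoid, and PPAR genes, and each lay on both sides of 0 over the 21 settings. Their members with the lowest p, beside Jdp2 and Cd36, were E2f8 (-0.65 ± 0.20 SE), G6pdx (-0.30 ± 0.094), Eno1 (0.36 ± 0.091), Hspa4l (0.46 ± 0.11), and Fdft1, squalene synthase, which was at 2.96, 5.13, and 5.41 CPM against 1.83, 0.647, and 2.27 CPM (1.54 ± 0.43 SE, adjusted p = 0.271). With a library left out and no block, E2f8 was -0.86 to -0.41, G6pdx -0.54 to -0.15, and Eno1 0.31 to 0.43. Hspa4l was then 0.066 to 0.80 and Fdft1 1.13 to 1.85.

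Markers of other cells had overlapping ranges with Chd8 and Tsc2 siRNA. The 8 astrocyte markers summed to 13.5 to 46.9 and 11.9 to 50.7 CPM, with Aqp4 at 0 in replicate 1 of both, and the 8 oligodendrocyte lineage markers to 19.3 to 27.2 and 11.8 to 24.2 CPM. Within pairs the oligodendrocyte lineage sum was higher with Chd8 siRNA in all 3, at 27.2, 26.6, and 19.3 CPM against 24.1, 24.2, and 11.8 CPM, with 4 of 4 tested markers above 0, 2 of them in all 3 pairs, and a median of 0.53 (0.14 over 3 markers without replicate 3). Without a count filter all 8 markers were fitted, of which 5 were above 0 and 3 below, with a median of 0.12. Neuron markers summed to 2.90 to 12.7 and 3.74 to 5.77 CPM, and endothelial and mural markers, mostly Flt1 and Kdr, to 159 to 180.0 and 168 to 229 CPM. Within pairs the latter sum was lower with Chd8 siRNA in replicates 2 and 3 (159 against 181 and 180.0 against 229 CPM) and nearly equal in replicate 1 (167.1 against 167.5 CPM). Of 5 tested markers 5 were below 0, but only 1 in all 3 pairs, and the median of -0.19 was -0.016, with 3 of 5 below 0, without replicate 3. The part of these cells in the other differences was not tested. The 10 microglia markers summed to 1861 to 2427 and 1999.9 to 2319.9 CPM. Border macrophage markers, mostly Mrc1, summed to 70.1 to 86.5 and 64.7 to 89.9 CPM, with Lyve1 at 0 in all 6 libraries. No neutrophil or lymphocyte marker passed the count filter, and S100a9, Ly6g, Elane, and Nkg7 were at 0 in all 6 libraries. Among the markers with the lowest p of their list were C1qa (-0.17 ± 0.091 SE), Mrc1 (0.066 ± 0.088), Aqp4 (-0.82 ± 0.33), Map2 (1.003 ± 0.42), Pdgfrb (-0.72 ± 0.30), and Col3a1 (-0.87 ± 0.66).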

How the data were processed

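Total RNA of primary microglia was sequenced, and the authors deposited estimated counts per transcript, made with salmon 0.14.1 on mm10, not normalized and not pooled. The strand setting of the quantification is not given in the sources used here. Samples were grouped by the siRNA in their titles. Transcript counts were summed to genes with the GENCODE annotation of GRCm38 (1096 of 140948 transcripts, with 0.27% of counts, matched no gene) and rounded.

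Genes were filtered with filterByExpr, scaled by TMM, and tested by the quasi-likelihood test of edgeR 4.0.16 in R 4.3.3 on 6 libraries, with the replicate number as a block. Benjamini-Hochberg adjustment ran over 15163 genes, and called genes had a false discovery rate under 0.05 and a fold change over 1.5. The pairing comes from the numbers in the titles, and same-numbered libraries deviated together (r = 0.51, 0.27, and 0.36; other pairs -0.36 to 0.04). With the block, p-values rest on the spread of the differences within replicate numbers, not on the spread between replicate numbers. This left 2 residual degrees of freedom per gene, raised to a median of 9.96 by sharing information across genes. Floors of 3 counts cover counting error only. Differences per replicate used log2 CPM + 0.5. The test was checked on simulated data with 200 changed genes. At a log2 change of 1 it recovered 75 of them with the block and 0 without. At a log2 change of 2 it recovered 132 and 86. Differences of these sizes can therefore be missed.

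Named genes were both targets, the 12 genes with the lowest p in each direction (called ones first, symbols of uncharacterized genes left out), the member with the lowest p of each list without a call, Igf1, and 8 phagocytosis genes of the study; other names are marked as chosen later, are overlapping or related genes, or are list members that were exceptions or defining markers. Some genes under this rule are not reported here. Members and lists were chosen with earlier results of these data known. Alternatives were other scalings, filters, and tests (DESeq2 1.42.0, limma 3.58.1), no block, all 9 libraries, transcripts, and each library or pair left out.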

Additional observations from a re-analysis of the deposited data

How the results depend on the processing

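The number of called genes, 5 with the replicate block that pairs libraries of one number, depended on the processing. Without the block it was 0, with 424 genes at an unadjusted p under 0.05 in edgeR's quasi-likelihood test; with all 9 libraries it was 34 with the block and 0 without (471 unadjusted). It was 8 with RLE scaling factors, 164 without a count filter, 13 with at least 1 CPM in 3 libraries, 57 with DESeq2's Wald test, 29 with limma-voom, and 84 with edgeR's likelihood-ratio test. Of the 5 called genes, DESeq2 shared 3 and each of the other settings in the last sentence shared 5. Transcripts not summed to genes gave 0 calls, with 1228 unadjusted with the block and 821 without, and entries with one symbol summed, chosen after seeing the data, gave 0. With a pair left out the number was between 0 (without replicate 2) and 212 (without replicate 1), and 13 without replicate 3; with any single library left out without the block it was 0 (299 to 1026 unadjusted). Called members of the gene lists, 0 here, numbered 5 with all 9 libraries and the block, 1 with RLE scaling, library size only, or unrounded counts, 17 without a count filter, 3 with at least 1 CPM, 7 with DESeq2, 6 with limma-voom, 8 with the likelihood-ratio test, and 0 to 28 (without replicate 1) with a pair left out.

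Chd8 passed the threshold with all 9 libraries and the block (-0.93), without a count filter (-0.96), with at least 1 CPM (-0.95), with DESeq2 (-0.94), limma-voom (-0.91), and the likelihood-ratio test (-0.95). It was between -1.21 (without replicate 1) and -0.72 (without replicate 3) with a pair left out, past the threshold in these cases but not without replicate 2 (-0.92, adjusted p = 0.888), and between -1.32 and -0.65 with a library left out without the block. Tsc2 was called in no alternative, at 0.22 to 0.50.

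Directions were reversed mostly for values near 0 or with 1 library left out without the block. Without the block Itgam was 0.029 with 6 and 0.029 with 9 libraries. With a pair left out, Col3a1 was between -1.46 and 0.013, Igf1 between -0.0013 and 0.10, Itgam between -0.12 and 0.18, Msr1 between -0.19 and 0.0039, Marco between -0.14 and 0.25, and Trem2 between -0.042 and 0.075. With a library left out without the block, values on the other side of 0 were -0.14 for Jdp2, -0.71 for Sparc, 0.0064 for C1qa, -0.020, -0.0044, and -0.089 for Mrc1, 0.33 for Aqp4, 0.012 for Col3a1, -0.10 for Igf1, 0.15, 0.25, and 0.35 for Itgam, 0.054, 0.087, and 0.071 for Msr1, -0.22 and -0.091 for Marco, and -0.16 and -0.10 for Trem2. The second Nnt entry became 0.20 once summed with the first. The ribosomal protein median stayed between -0.22 and -0.11 in all settings, and the matrix list median was between -0.041 (without Chd8 siRNA replicate 3 and without the block) and 0.55. The cause of these changes was not tested.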
